A study of Mus musculus with 16 samples.

Results

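The genes described here are 39 members of the cadherin superfamily in mouse: 5 type I classical cadherins, 12 type II cadherins, 3 other Cdh genes, the 2 tip link cadherins Cdh23 and Pcdh15, 9 nonclustered protocadherins, 4 Fat genes with Dchs1, and the 3 Celsr genes. They were listed by name, not by a threshold on loops, with earlier results of these data known, and all 39 were found among the 21755 protein-coding genes of chromosomes 1 to 19 and X in GENCODE vM21 (GRCm38/mm10). The measurement is chromatin looping in whole cochlea of C57Bl/6 mice, labelled P0 and described elsewhere by the submitters as P0/1, with no genetic or drug treatment named. Micro-C, a form of chromosome conformation capture in which chromatin is cut with micrococcal nuclease, was run on 4 replicates, of which the study's text calls 1 technical and a supplementary heading calls all biological, and the authors merged the 4 before they called 6798 loops in bins of 10 kb. Only the merged list is used here, so no spread between replicates can be given and no difference below was tested. The cochlea holds many cell types, and a loop held by few cells or weakly by all of them cannot be told apart in such a list.

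Cadherins are transmembrane proteins whose extracellular repeats bind calcium and, mostly, the same cadherin on the facing cell. Classical cadherins hold epithelial and neural cells together through catenins and actin, Fat, Dachsous and Celsr proteins set planar polarity across a sheet of cells, and nonclustered protocadherins sort neurons and their contacts. In the cochlea, cadherin 23 and protocadherin 15 form the tip link that pulls open the transduction channel of the hair cell.

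A loop is a pair of bins that contact each other more than their surroundings do, and each of the pair is an anchor. A loop was counted at a gene if an anchor bin overlapped the gene body or came within 20 kb of the start site, and it was said to span a gene if the gene lay wholly between the anchors. Many loop anchors hold the binding motif of CTCF, the protein at which loop extrusion by cohesin is thought to halt. The matches of its 14-base consensus without mismatch, in the lowest-FDR or longest loops of the genes described most fully, are shown with 8 bases on either side, read 5′ to 3′ on the strand given and with the consensus in capitals, because they show what sequence stood at these anchors (GRCm38/mm10).
Cdh1, upstream anchor, chr8:106561246-106561275, plus strand: cttccttcCCAGCAGAGGGCGCcattctcc
Cdh3, upstream anchor, chr8:106433131-106433160, plus strand: ccttgtgaCCACCAGGGGGCGCtggcgcac
Cdh13, intron anchor, chr8:119064725-119064754, minus strand: gtatatggCCACCAGGTGGCAGtaaagcac
Pcdh15, anchor in the gene body, chr10:74464182-74464211, minus strand: caactctaCCACTAGAGGGCAGtattggca
Fat4, downstream anchor, chr3:39815019-39815048, minus strand: ttagttagCCACTAGATGGCAGtgccacac
Celsr2, anchor in the gene body, chr3:108401778-108401807, plus strand: ccttaaacCCAGTAGGTGGCAGcactgacc
Celsr2, upstream anchor, chr3:108563521-108563550, minus strand: gttcacagCCAGCAGATGGCACtgtagcag
At Celsr2 the 2 matches pointed towards each other across the loop, and at Cdh1 the plus-strand match faced an anchor whose best matches, each with 1 mismatch, lay on the minus strand. Matches with at most 1 mismatch were present in 34 of the 68 anchor bins of loops at the 39 genes (50%) and in 48.4% of all 11828 anchor bins. Both anchors could be given a direction in 7 of the genes' loops, and 5 of them were convergent (71.4%, Wilson 95% interval 35.9 to 91.8), at Cdh1, Cdh13, Pcdh8, Fat4 and Celsr2. Over the whole list 1026 of 1502 such loops were convergent (68.3%). A match is a description of the letters in the bin and not a measured binding site.

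Anchors lay directly on some start sites, and 3 of those promoters are shown to give the sequence there. They run from 250 bases before the start to 50 after it, from RefSeq (GRCm38.p6), with each CG dinucleotide in capitals.
Fat4, chr3:38886690-38886989, plus strand: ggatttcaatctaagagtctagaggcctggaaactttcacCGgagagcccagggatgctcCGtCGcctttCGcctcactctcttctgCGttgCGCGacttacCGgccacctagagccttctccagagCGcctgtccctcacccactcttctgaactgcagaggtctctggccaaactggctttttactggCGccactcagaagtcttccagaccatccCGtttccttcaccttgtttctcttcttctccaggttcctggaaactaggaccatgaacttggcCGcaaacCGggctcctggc
Cdh23, chr10:60696441-60696740, minus strand: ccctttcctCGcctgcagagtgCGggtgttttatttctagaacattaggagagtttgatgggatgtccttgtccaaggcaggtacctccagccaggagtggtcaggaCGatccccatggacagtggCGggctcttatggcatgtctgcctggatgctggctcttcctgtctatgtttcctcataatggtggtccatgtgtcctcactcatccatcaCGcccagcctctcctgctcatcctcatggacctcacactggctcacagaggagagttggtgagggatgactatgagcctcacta
Pcdh17, chr14:84443313-84443612, plus strand: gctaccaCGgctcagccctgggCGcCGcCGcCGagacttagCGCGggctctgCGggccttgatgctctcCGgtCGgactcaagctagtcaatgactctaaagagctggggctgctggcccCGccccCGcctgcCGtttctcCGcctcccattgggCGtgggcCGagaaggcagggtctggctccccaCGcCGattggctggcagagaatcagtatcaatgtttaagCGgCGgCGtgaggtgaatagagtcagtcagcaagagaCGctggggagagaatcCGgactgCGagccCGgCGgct
The Pcdh17 promoter held 26 CG dinucleotides, a number reached by 16.9% of the 32851 promoters of the table, Fat4 held 13 (37.9%) and Cdh23 held 5 (62.0%). The promoters with an anchor on the start site thus ranged from poor to rich in CG. The table held promoters of 25 of the 39 genes: the 8 whose own start lay in an anchor bin had a median of 12 and the other 17 a median of 14. Over all promoters the median was 7. Some of the 17 lay far from the start site classed here (722525 bp at Pcdh15, 662187 at Cdh12, 487441 at Cdh18, 24307 at Fat2 and 14761 at Fat1). For these genes the promoter is not that of the classed start, so the 2 medians are not a clean comparison. None of the 25 held a CTCF consensus match with at most 1 mismatch. These promoters are far shorter than a bin of 10 kb and the share over all promoters is not given, so this is no trait of these genes.

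Loops were anchored at 21 of the 39 genes (53.8%, Wilson 95% interval 38.6 to 68.4), against 35.5% of all protein-coding genes. The cadherin superfamily genes are long, with a median of 123 kb against 17.4 kb, and a long gene has more room for an anchor. Among the 100 protein-coding genes nearest in length to each of them, 57.8% on average had an anchored loop, so the share of the 39 stood close to that of genes of their length. In all, 37 loops were anchored at the 39 genes, where the mean of the genes of like length would give 50.6. Cdh23 had 5 loops, Cdh13, Fat4 and Celsr1 had 3 each, 6 genes had 2, 11 had 1 and 18 had none. Intervals here cover the counting of genes or loops only, and the depth behind a loop is not in the list.

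**Figure D1:**
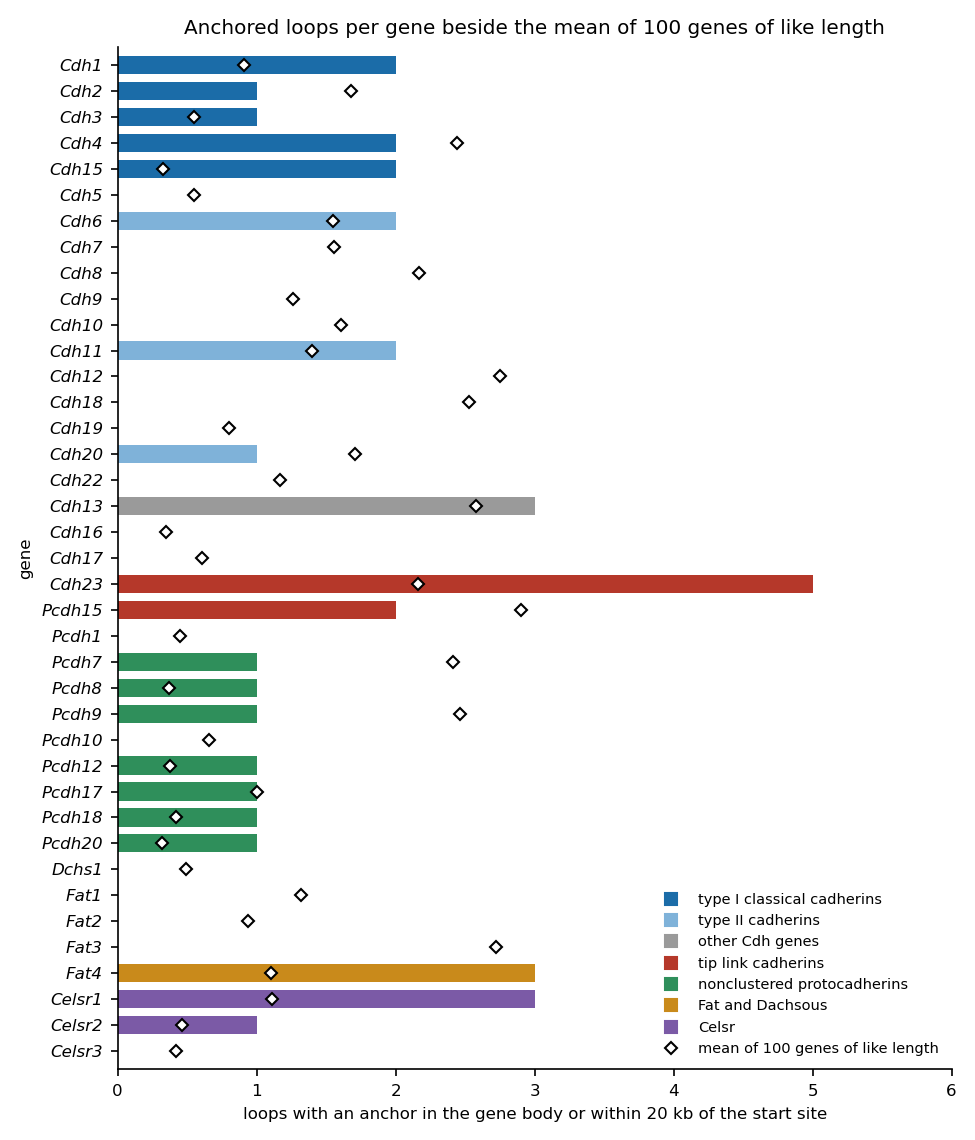
Number of loops with an anchor in the body of each of the 39 genes or within 20 kb of its start site (bars, horizontal axis, merged replicates) and the mean over the 100 protein-coding genes nearest in length (diamonds). Bars reach from 0 to the 5 loops of Cdh23, and most type II cadherins and Fat genes have no bar while their diamonds lie between 0.55 and 2.75.

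Within the group the families differed widely in how many of their genes carried an anchor. All 5 type I classical cadherins and both tip link cadherins had at least 1 anchored loop, as did 7 of 9 nonclustered protocadherins and 2 of 3 Celsr genes. By contrast 3 of 12 type II cadherins, 1 of 3 other Cdh genes and 1 of 5 Fat and Dachsous genes had one. For genes of like length the corresponding means were 55.2% for type I, 75% for the tip link pair, 46.1% for the nonclustered protocadherins, 45% for Celsr, 68.9% for type II, 47.0% for the other Cdh genes and 62.2% for Fat and Dachsous. The families hold few genes and some are neighbours on a chromosome, so these counts are not independent draws.

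An anchor within 20 kb of the start site was found at 17 genes (43.6%), against 27.2% of all protein-coding genes and 32.2% of genes of like length. Loops spanned 9 genes (23.1%), against 28.1% and 30.3%. Cdh17 and Pcdh18 were spanned by 3 loops each, Cdh22 and Pcdh1 by 2, and Cdh2, Cdh3, Pcdh8, Fat2 and Fat4 by 1. Neither an anchored nor a spanning loop was found at 14 genes, and 5 genes had both. The 20 kb limit took in Celsr1's anchor at 16.2 kb and Cdh15's at 18 kb from the start, and for Cdh15 there was no anchor in the gene body. Just outside it, the nearest anchor lay 25.6 kb from the start of Cdh16, 27.9 kb from that of Pcdh1, 33.4 kb from that of Fat2 and 35.1 kb from that of Cdh22, none of which had an anchor in the body.

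Distances to the start site spread to both extremes. The start site itself lay in an anchor bin for 10 genes (25.6%, Wilson 95% interval 14.6 to 41.1), against 7.10% of all protein-coding genes and 9.82% of genes of like length: Cdh6, Cdh23, Pcdh7, Pcdh9, Pcdh12, Pcdh17, Pcdh18, Pcdh20, Fat4 and Celsr1. At the other end, 9 genes (23.1%, interval 12.6 to 38.3) started more than 1 Mb from any anchor, against 7.18% of all protein-coding genes and 5.21% of genes of like length. They were Cdh7 at 1.15 Mb, Cdh8 at 2.20, Cdh9 at 2.87, Cdh10 at 4.96, Cdh12 at 4.13, Cdh18 at 2.03, Pcdh10 at 3.71, Dchs1 at 1.87 and Pcdh15 at 1.11. Cdh9, Cdh10, Cdh12 and Cdh18 share one stretch without an anchor, so these genes are not independent draws, which the interval takes them to be. The start-site and 1 Mb counts were both added after the data were seen. The median was 33.4 kb for the 39 genes and 56.6 kb for all. Gene density differed as well, since the 39 genes had a median of 4 protein-coding neighbours within 1 Mb against 29 for all protein-coding genes, and its part in these shares was not tested.

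**Figure D2:**
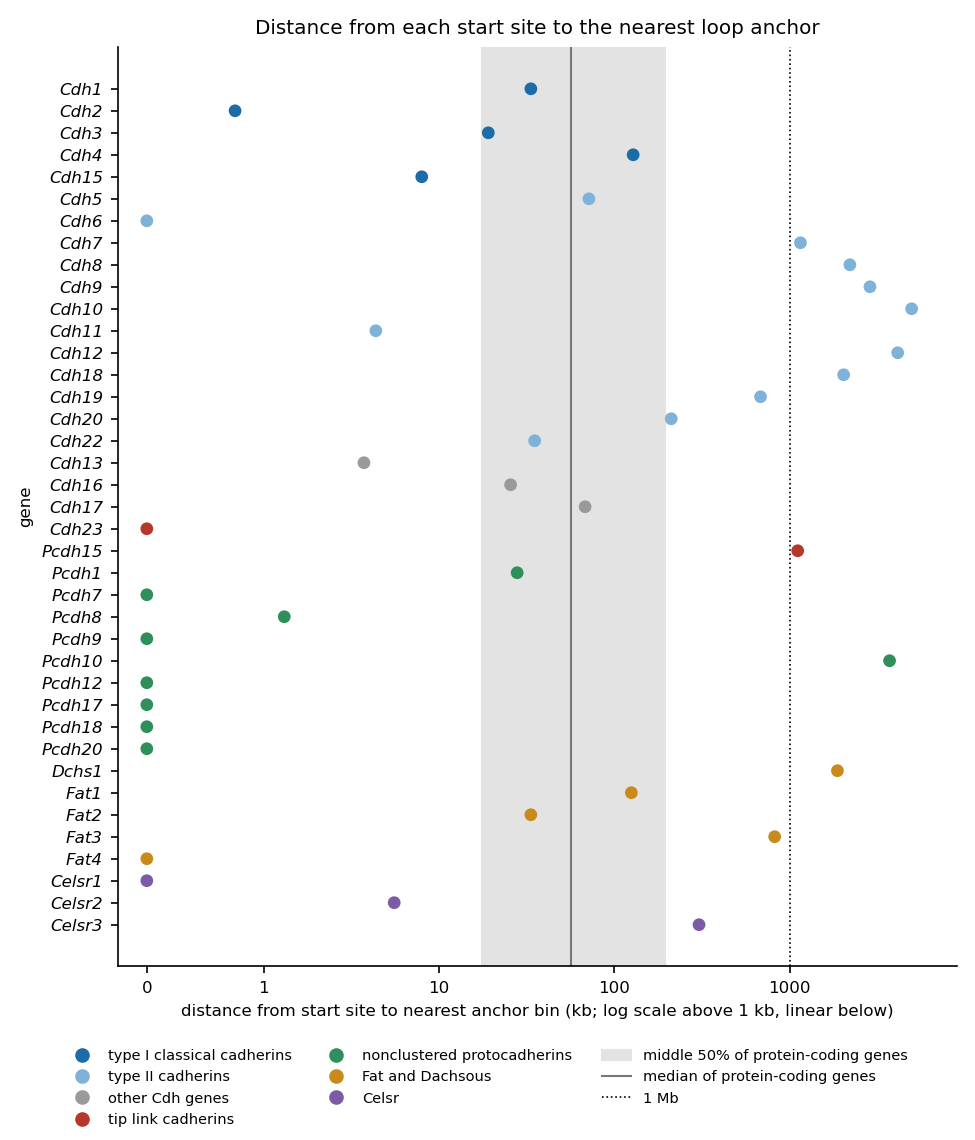
Distance from each gene's start site to the nearest anchor bin in kb (horizontal axis, log scale above 1 kb and linear below), coloured by family, with the median of all protein-coding genes (line, 56.6 kb), their middle 50% (grey) and 1 Mb (dotted). At 0 sit 10 genes, 6 of them nonclustered protocadherins, and beyond 1 Mb sit 9, 6 of them type II cadherins.

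Type I classical cadherins, the adhesion molecules of adherens junctions, all had loops, and none had its start site in an anchor bin. Cdh1, encoding E-cadherin of epithelia (ENSMUSG00000000303.12, chr8:106603351-106670246, plus strand), had 2: one of 80 kb from a bin 33.4 kb upstream of the start to exon 3 of 16 (FDR 0.000870), and one of 230 kb from the Zfp90 gene to exons 4 to 9 (FDR 0.0722). Cdh3, encoding P-cadherin (ENSMUSG00000061048.8, chr8:106510891-106557297, plus strand), is its upstream neighbour and lay wholly inside the 230 kb loop. Cdh3 had its own loop of 100 kb, from 70.9 kb upstream of its start to exons 3 to 8 of 16 (FDR 0.0138). The anchors of all 3 loops within these adjacent genes lay in exon-bearing bins of the gene body, not at the start sites.

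Cdh2, encoding N-cadherin of neural and mesenchymal tissue (ENSMUSG00000024304.14, chr18:16588877-16809246, minus strand), had 1 loop of 590 kb (FDR 0.000682). Its anchor lay 755 bp upstream of the start, next to the bin that holds it, and the other lay beyond the 3′ end, so the loop enclosed the whole gene. No other protein-coding gene starts within 1 Mb of Cdh2. Cdh4, encoding R-cadherin of retina and brain (ENSMUSG00000000305.12, chr2:179442431-179899373, plus strand), had loops of 480 kb (FDR 0.0499) and 300 kb (FDR 0.0729). The shorter joined intron 2 to exon 8 of 16 within the gene. Cdh15, encoding M-cadherin of muscle, had loops of 330 kb (FDR 0.0220) and 200 kb (FDR 0.00196), both reaching upstream, with their near anchors 7.97 and 18 kb before the start in the body of the readthrough gene Gm20388. The 200 kb loop ended at the start site of Pabpn1l.

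Type II cadherins, which pattern neurons, endothelium and mesenchyme, had 5 loops in all where genes of like length would give 19.1. Cdh6, found in kidney and neural crest (ENSMUSG00000039385.5, chr15:13028701-13173675, minus strand), had 2, which shared an anchor at chr15:13850001-13860000, 676 kb upstream. One reached the start site (680 kb, FDR 0.0127) and the other exon 2 of 12 (760 kb, FDR 0.05). This pair counted as a single loop when calls within 100 kb at both anchors were merged. Cdh11, a mesenchymal cadherin (chr8:102632095-102785642, minus strand), had 2 loops of 1150 kb (FDR 0.0430) and 1230 kb (FDR 0.00689) that left the region of its start in opposite directions, from intron 1 and from 4.36 kb upstream. The upstream one ended 71.6 kb from the start of Cdh5, the vascular endothelial cadherin, which had no loop. Cdh20 had 1 loop of 640 kb from exon 11 of 12 to the body of Pign (FDR 0.000109). Cdh22 had no anchor but was spanned by loops of 200 kb (FDR 0.00165) and 260 kb (FDR 0.000704).

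The other 8 type II genes, Cdh5, Cdh7, Cdh8, Cdh9, Cdh10, Cdh12, Cdh18 and Cdh19, were neither anchored nor spanned. Cdh9, Cdh10, Cdh12 and Cdh18 lie in tandem in one stretch without any anchor, chr15:13860001-24580000. It measured 10.7 Mb, ranked the fifth longest of 9877 stretches between neighbouring anchors, and held 5 protein-coding start sites, 4 of them these cadherins. The distal anchor of both Cdh6 loops was the bin that borders this stretch. Cdh8 lay in a stretch of 5.77 Mb (chr8:95850001-101620000), bordered by the distal anchor of the 1150 kb Cdh11 loop. Cdh7 and Cdh19 shared one of 2.83 Mb on chromosome 1. These stretches were chosen for description after their values were seen. Each held under 1 protein-coding start site per Mb (0.466, 0.520 and 0.707, against 8.26 over all chromosomes used), had a GC content of 36.3 to 37.7% and contained no unsequenced bases. How many Micro-C contacts fell there is not in the list, and the part of depth was not tested.

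Of the other Cdh genes, Cdh13 encodes T-cadherin, which lacks a cytoplasmic tail and is held by a lipid anchor (ENSMUSG00000031841.19, chr8:118283733-119324921, plus strand). It had 3 loops, of 1170 kb (FDR 0.0921), 790 kb (FDR 0.0333) and 550 kb (FDR 0.0418). Anchors stood on either side of its start, 3.73 kb upstream and 6.27 kb downstream in intron 1, and were joined to intron 6 and intron 4 respectively. The intron 6 bin served 2 of the loops and held the CTCF consensus match printed above. Cdh16 of kidney had no loop, and Cdh17 of intestine was spanned by loops of 400 kb (FDR 0.000286), 290 kb (FDR 0.0648) and 220 kb (FDR 0.0737) without an anchor at the gene.

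Both tip link cadherins carried loops inside the gene. With every call counted, Cdh23 (ENSMUSG00000012819.15, chr10:60302748-60696490, minus strand) had the most loops of the 39. Its count exceeded that of 89.0% of the 100 genes of like length, whose mean was 2.16. The loop of 160 kb joined its start site to exons 8 and 9 of 70 (FDR 0.0167). One of 270 kb joined exon 2 to exons 22 to 25 (FDR 0.0103), and one of 100 kb joined exons 26 to 28 to exons 61 to 70 at the 3′ end (FDR 0.0359). These 3 had both anchors at the gene and between them touched its start, middle and end. The bin at the 3′ end also overlapped the neighbouring gene Psap. The remaining pair reached out of the gene to Slc29a3, a nucleoside transporter gene upstream of it: a 340 kb loop ran from the bin of exons 22 to 25 to the Slc29a3 start site (FDR 0.000738), and a 430 kb loop ran from exons 49 to 60 to its body (FDR 0.0326). The loops of 270, 340 and 430 kb lay within 100 kb of one another at both anchors. They counted as a single loop when such calls were merged, so the lead of Cdh23 rests on counting them apart.

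Pcdh15 (ENSMUSG00000052613.16, chr10:73099342-74649737, plus strand) had 2 loops, both within the gene, where the mean of genes of like length was 2.90. One of 250 kb joined exon 7 to exon 22 of 35 (FDR 0.0334), and one of 130 kb joined exon 11 to intron 19 (FDR 0.0842). The shorter loop lay inside the longer, and neither came near the start. This pair too counted as a single loop when calls within 100 kb at both anchors were merged. The gene record begins at 73099342 and the coding transcript used for exon numbers at 73821883. When the starts of all coding transcripts were used, the number of genes over 1 Mb from an anchor went from 9 to 8. The stretch without an anchor that holds the recorded start measured 2.81 Mb and ended at the exon 7 anchor.

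**Figure D3:**
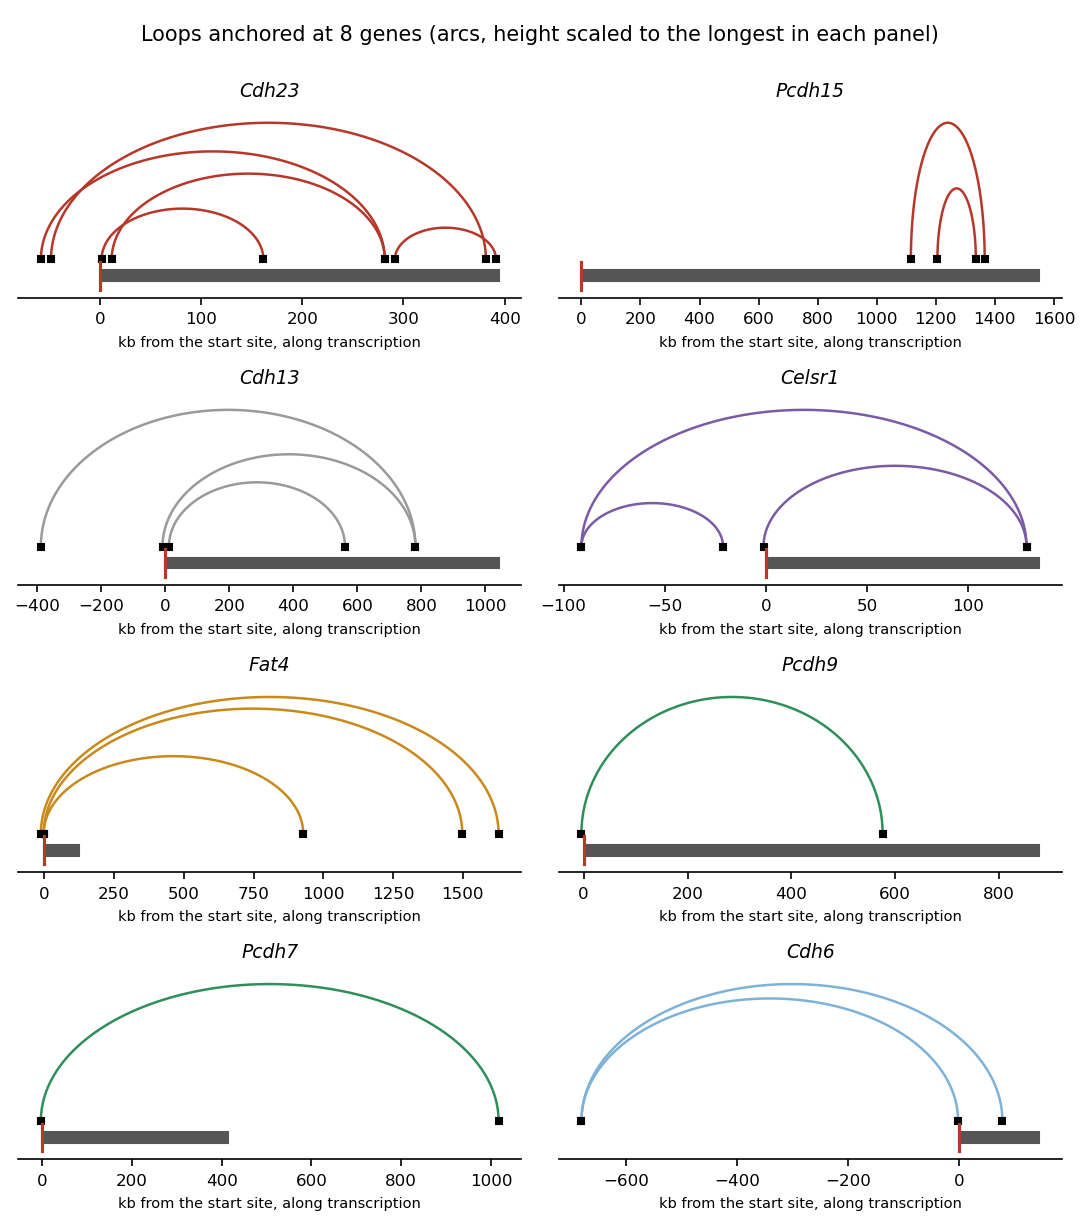
Loops (arcs) anchored at Cdh23, Pcdh15, Cdh13, Celsr1, Fat4, Pcdh9, Pcdh7 and Cdh6, on an axis of kb from the start site (red tick) in the direction of transcription; squares mark the anchor bins, the grey bar is the gene, and arc heights are scaled within each panel. The arcs of Cdh23, Pcdh15 and Pcdh9 lie wholly or partly on the gene, and those of Fat4 and Pcdh7 run past its end, the longest with 1640 kb between its anchors.

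Nonclustered protocadherins lie outside the large protocadherin gene clusters, and many are expressed in the nervous system. The start site lay in an anchor bin for 6 of the 9 (66.7%), where genes of like length averaged 8%, and each of the 7 anchored genes had exactly 1 loop. Pcdh7 (chr5:57717967-58133230, plus strand) looped from its start over 1020 kb to a bin beyond its 3′ end (FDR 0.0226). Pcdh20 (chr14:88464743-88471396, minus strand) looped over 1010 kb to the Tdrd3 gene (FDR 0.00354), and Pcdh17 (chr14:84443563-84539002, plus strand) over 410 kb to a bin without a protein-coding gene (FDR 0.0315). In these 3 genes the partner lay downstream of the gene. Pcdh9 (chr14:93013410-93890679, minus strand) instead joined its start to intron 4 across 580 kb of its own body (FDR 0.00140). Pcdh18 (chr3:49743296-49757325, minus strand) joined its start over 320 kb to the upstream Slc7a11 gene, encoding the cystine transporter (FDR 0.00519), and was also spanned by loops of 810, 980 and 1200 kb.

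Pcdh12, an endothelial protocadherin, had its start in an anchor bin that also held the start of Rnf14, so the gene to which this 280 kb loop (FDR 0.0326) belongs cannot be told apart. The loop spanned Pcdh1, an epithelial protocadherin that had no anchor of its own. When calls within 100 kb at both anchors were merged, the 280 kb loop gave way to one of 230 kb (FDR 0.00376). That loop had no anchor at Pcdh12. Of the 39 genes, 20 then had an anchored loop and 9 had the start site in an anchor bin. Pcdh8 (chr14:79766775-79771312, minus strand), known from activity-regulated adhesion in neurons, had parts of its 3 exons in an anchor bin 1.31 kb from the start, in a 450 kb loop with an FDR of 7.97e-05. Pcdh10 was the exception in this family. Its start lay 3.71 Mb from an anchor, in a stretch of 7.51 Mb without one (chr3:41580001-49090000) that ended at the anchor of a pair of the loops spanning Pcdh18.

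Among the Fat and Dachsous genes, which code for giant cadherins, Fat4 stood alone with loops. It encodes the receptor for Dchs1 in planar polarity (ENSMUSG00000046743.6, chr3:38886940-39011985, plus strand) and had 3 loops, of 930 kb (FDR 0.00638), 1500 kb (FDR 0.00667) and 1640 kb (FDR 0.0335), more than 87.0% of genes of like length. The shorter pair left from the start-site bin and the longest from the bin before it, and all 3 ended beyond the 3′ end where no protein-coding gene was annotated. The gene itself measured 125 kb, so these loops were far longer than the gene. Dchs1, its ligand (chr7:105752990-105787654, minus strand), had no loop and started 1.87 Mb from the nearest anchor. It lay in a stretch of 4.74 Mb (chr7:102920001-107660000) with 181 protein-coding start sites, 38.2 per Mb, unlike the sparse stretches around the type II cadherins. Fat1 and Fat3 had no anchored or spanning loop, and Fat2 was spanned by 1 of 170 kb (FDR 0.00112).

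Celsr genes encode the core planar polarity cadherins that cross the membrane several times. Celsr1 (ENSMUSG00000016028.10, chr15:85898929-86033777, minus strand) held the lowest FDR of all 37 loops, 3.23e-05, for a 130 kb loop that joined the start site to exons 25 to 35 of 35. A 220 kb loop ran from the same 3′ bin to the upstream Gramd4 gene (FDR 0.00158), and the third, of 70 kb, lay in Gramd4 (FDR 0.000132) and was counted only through the 20 kb window. With every call counted, Celsr1 thus had its 2 ends joined to each other and its 3′ end joined to a gene upstream of it. The 130 and 220 kb loops counted as a single loop when calls within 100 kb at both anchors were merged. Celsr2 (chr3:108390851-108415552, minus strand) had 1 loop of 160 kb, from exons 2 to 14 of 34 to the Tmem167b start site (FDR 0.000540). Celsr3 (chr9:108826320-108852969, plus strand) had none, with the nearest anchor 304 kb from its start.

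Loops with both anchors at one gene were found at 6 genes (15.4%), against 2.79% of all protein-coding genes and 16.5% of genes of like length: Cdh4, Cdh13, Cdh23, Pcdh9, Pcdh15 and Celsr1. There were 10 such loops. All 6 genes were longer than 100 kb, and the share of the 39 stood close to that of genes of their length. Counting each loop and gene, 29 anchors lay in the gene body away from the start, 11 on the start and 7 upstream within the window.

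Loops at these genes had a median distance of 410 kb (quartiles 220 and 760, range 70 to 1640) in the main count. The median was 280 kb (160 and 500, range 60 to 1960) for all 6798 loops and 290 kb for the 2827 loops at genes of like length. Under the alternatives run for it, the median at these genes ran from 335 kb, with all coding transcript starts, to 450 kb, with calls within 100 kb merged. The comparison medians are not given for those settings, and the part of gene density was not tested. At least 1 Mb was covered by 7 of the 37 (18.9%, Wilson 95% interval 9.48 to 34.2), against 6.41% of all loops and 6.15% of those at genes of like length. The 7 belonged to Cdh11, Cdh13, Pcdh7, Pcdh20 and Fat4. Those of 1150 and 1230 kb were both at Cdh11, and those of 1500 and 1640 kb both at Fat4. They are thus not independent draws, which the interval takes them to be. This share was not a planned result, and no alternative is given for it. The calls had a median FDR of 0.0138 against 0.0113 for the list, and 16 of 37 (43.2%) were below 0.01 against 48.0%. The strength of contact was not measured here. Loops below an FDR of 0.05 made up 89.2% of the 37 and 78.8% of the list.

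**Figure D4:**
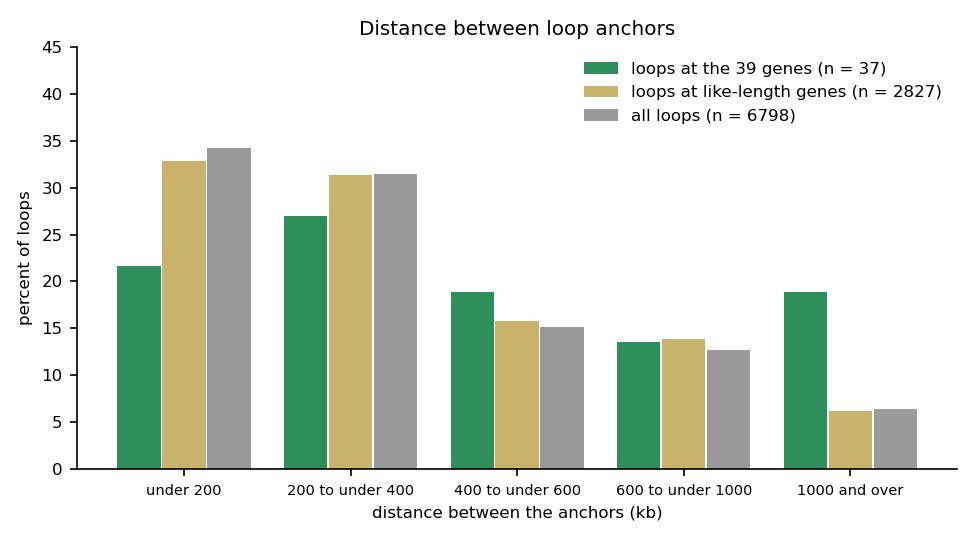
Percent of loops in 5 classes of distance between the anchors, for the 37 loops at the 39 genes, the 2827 at genes of like length and all 6798 loops. At 1000 kb and over the bar of the 39 genes stands at 18.9%, that of genes of like length at 6.15% and that of all loops at 6.41%.

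The loops that touched a start site showed where its partner lay. There were 11 such loops at 10 genes, with a median of 580 kb. A pair of them left the same Fat4 bin, and the Pcdh12 loop began in a bin shared with the start of Rnf14. The shares that follow rest on these few loops, were not planned results and were not tested. The partner was downstream of the gene in 6 (54.5%), in the gene's own body in 3 (27.3%; Cdh23, Pcdh9 and Celsr1) and upstream in 2 (18.2%; Cdh6 and Pcdh18). For all protein-coding genes the 1738 start-site loops had a median of 220 kb and 43.1%, 9.61% and 47.3% in these positions, and at genes of like length 330 loops had a median of 240 kb and 40.3%, 23.6% and 36.1%. Among the 27 far ends of loops anchored once at these genes, 16 (59.3%, Wilson 95% interval 40.7 to 75.5) overlapped no protein-coding gene, against 40.2% of all anchor bins. A protein-coding start site lay in 3 of them (11.1%; Slc29a3, Tmem167b and Pabpn1l), against 11.9%. The far ends of Cdh6's pair of loops were the same bin, as were those of a pair at Celsr1, and such bins count once per loop here. The sets compared are unlike, since far ends leave out the anchors at the genes while all anchor bins include those lying in genes. No value for far ends at genes of like length is given, and the part of gene density was not tested.

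The number of loops followed length only loosely within the group. Spearman's rho between loops and gene length was 0.15 over the 39 genes and 0.33 over all protein-coding genes, which share neighbouring anchors and so are not independent points. Of the 21 genes of at least 100 kb, 12 had an anchored loop (57.1%), where genes of like length gave 73.2%, and of the 18 shorter ones 9 had one (50%), where genes of like length gave 39.8%. The 9 long genes without loops were Cdh7, Cdh8, Cdh9, Cdh10, Cdh12, Cdh18, Cdh22, Fat1 and Fat3, and the short genes with loops were Cdh1, Cdh3, Cdh15, Pcdh8, Pcdh12, Pcdh17, Pcdh18, Pcdh20 and Celsr2.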

How the data were processed

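Whole cochlea of mice was profiled by Micro-C in 4 replicates. The authors aligned reads to mm10, with BWA and Juicer named in the submitters' processing notes, used pairtools to drop duplicate pairs, pooled the 4 libraries and ran the loop caller Mustache at a bin size of 10 kb. The deposited q-value of each loop (its FDR, up to 0.1) and its deposited detection score (the smoothing scale at which the loop was found) were used as given. The loop list carries no read depth per loop or library, and the study's own read totals are not used here. ATAC-seq and CUT&RUN samples were not analysed here.

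Bins were compared with GENCODE vM21 genes in Python 3.11.15 (numpy 2.4.6, pandas 2.3.3, scipy 1.17.1). The start site was the 5′ end of the gene record. Genes of like length were the 100 other protein-coding genes nearest in log length. CTCF matches used a 14-base consensus from general knowledge with at most 1 mismatch on the GRCm38.p6 sequence (samtools 1.23.1). The counting and the motif search were tested on simulated data beforehand.

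Described in full were the tip link genes, Cdh1 to Cdh3, Fat4, Dchs1 and the Celsr genes, and every gene with 3 or more loops, a start site in an anchor bin or a loop with both anchors at it. The loops named for these were the lowest in FDR and the longest, and further loops were named after their values were seen. The genes, families and lists were chosen with earlier results of these data known. Alternatives were FDR thresholds of 0.05 and 0.01, the smallest detection scale, merged calls, CTCF matches without mismatch, other windows, other choices of like-length genes and other start sites.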

Additional observations from a re-analysis of the deposited data

How the results depend on the processing

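The list gives one call per loop from merged libraries, and carries no read depth, so a missing loop means only that none passed at that depth. No paired analysis was possible because the replicates were merged before loops were called, and for the same reason no replicate could be left out. With loops below an FDR of 0.01 only, 13 genes had an anchored loop, 10 had one near the start and 5 were spanned. That threshold left 16 loops, 2 of them with both anchors at one gene, 5 genes with the start in an anchor bin, 9 above the median of genes of like length (14 at first), and 4 of 4 loops with a direction convergent (100%). In the main count 5 of 7 were convergent, with matches without mismatch 1 of 2 (50%), with all coding transcript starts 5 of 8 (62.5%) and with a 50 kb window 7 of 11 (63.6%). The share of genes of like length with a loop was 38.5% below an FDR of 0.01. In the main count it was 57.8%, beside 21 of the 39 genes. It was 51.9% below an FDR of 0.05 (21 of the 39) and 48.1% at the smallest detection scale (19 of the 39). With calls within 100 kb merged it was 55.7% (20 of the 39). A window of 10 kb gave 54.6% (21 of the 39) and one of 50 kb 65.9% (25 of the 39). At the smallest detection scale 9 genes stood above the median of genes of like length. Why these values changed was not tested. The other settings moved no count of genes or loops by more than 1.5 times. The counts of genes with the start in an anchor bin or over 1 Mb from any anchor, and the alternatives for them, were added after seeing the data.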

Other observations

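Genes that act with these cadherins were counted in the same way. Among 14 planar polarity partners, 10 had an anchored loop (71.4%, against 35.5% of all protein-coding genes and 46.7% of genes of like length). Fjx1, coding for a secreted kinase-like modulator of Fat and Dachsous binding, had 4 loops although the gene measures 3.13 kb, with its start in an anchor bin and a lowest FDR of 0.000538. Prickle1, Prickle2 and Vangl2, which code for core polarity proteins, had 2 each, and Dvl1, Dvl2, Ptk7 and Vangl1 had none. Of 13 catenins and plakophilins, the cytoplasmic partners of classical cadherins, 7 had a loop (53.8%, genes of like length 51.1%), with 4 each at Ctnna2 and Pkp4 and 2 each at Ctnnb1 and Ctnnd2.

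Of 14 partners of the tip link, 4 had an anchored loop (28.6%, genes of like length 44.5%). These were Adgrv1 with 7, Tmc1, coding for a subunit of the transduction channel, with 2, Whrn with 2 and Ush1c with 1. Of 20 further members of the superfamily, 4 had one (20%, genes of like length 41.5%): Dchs2 had 4 loops, and Ret, Cdhr3 and Clstn2 had 1 each, that of Ret with an FDR of 3.74e-06. The X-linked Pcdh11x started 6750 kb from the nearest anchor, farther than any of the 39 genes.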
